A study of Mus musculus with 6 samples.

Results

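The genes described are 8 markers and transcription factors of pancreatic α cells other than the glucagon gene: Irx1, Irx2, Pou3f4, Ttr, Gc, Slc38a5, Dpp4 and Loxl4. They were chosen by name, and a gene counted as measured where a probe set carried its symbol and no other. By this rule 7 of the 8 were measured, each by 1 probe set, among 22180 genes in all. Gc, which encodes the vitamin D-binding protein, was not analysed here.

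The samples were pancreatic islets from C57BL/6J mice aged 5 weeks, read on Affymetrix arrays. The 3 arrays labelled wildtype held islets of floxed littermates (Sel1L f/f) that carried no Cre. The 3 labelled β cell-specific Sel1L-deficient held islets of floxed mice with Ins1Cre, a Cre recombinase knocked into the insulin 1 locus. Deletion was thus directed to β cells, while α cells were to keep the gene, and no mice with Cre and unfloxed Sel1l were among the samples. All islets were hand-picked and kept overnight in culture before RNA extraction. The labels do not say how many animals stood behind an array, so the p-values cover only the spread between arrays. Between replicates 1 and 2 that spread may be technical, while replicate 3 differed from them in Y-linked transcripts, as given below.

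α cells are the glucagon-secreting cells of the islet and lie among the β cells, δ cells, PP cells, vessels and supporting cells that islet RNA also holds. Their identity rests on transcription factors such as the Iroquois proteins IRX1 and IRX2 and the POU protein BRN4, which Pou3f4 encodes. Surface and secreted proteins mark them too, among them the amino acid transporter SLC38A5, which α cells raise when glucagon action is blocked, the peptidase DPP4, which inactivates the incretin GLP-1, and the thyroid hormone carrier transthyretin (Ttr). Sel1L serves the ubiquitin ligase HRD1 as its partner in a complex that clears misfolded proteins from the endoplasmic reticulum. The question a comparison of these genes addresses is whether transcripts of α cells moved in islets whose β cells had lost Sel1L.

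Values are log2 RMA summaries as deposited, and array medians over all probe sets ran from 3.08 to 3.16. The table has no detection call, so values near or below these medians were not separated from background. Sel1l fell on the deficient arrays by 0.90 on the log2 scale (limma, Benjamini-Hochberg adjusted p = 0.0312) and followed the labels on all 6 arrays. Replicate 3 of each genotype stood apart: although all samples are labelled female, its 3 Y-linked genes averaged 6.75 in wildtype and 6.36 in deficient islets, against 1.44 to 1.84 on the other 4 arrays. These 2 arrays also had the highest mean of 6 acinar markers, 9.28 and 9.18 against 6.80 to 8.20. Between genotypes 6 of 6 acinar markers differed downward, with a median of -0.72, overlapping groups and 0 past the threshold. Each measured member was therefore also compared within the 4 arrays and within the 2. The differences were 0.14 and 0.24 for Ttr, -0.15 and -0.08 for Pou3f4, and -0.18 and -0.16 for Loxl4. Those of the other measured members are given with each gene.

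None of the 7 measured α-cell genes rose or fell by the test across all genes (limma, adjusted p under 0.05; 0 of 7), where 0.243% of all genes were called, 0.0902% as rises and 0.153% as falls. Irx1 and Slc38a5 came nearest: in both, the lowest deficient value was above the highest wildtype value, and the means differed by 0.56 and 0.37 on the log2 scale. Irx2 and Ttr had higher means and Pou3f4, Dpp4 and Loxl4 lower ones in deficient islets, and in these 5 the groups overlapped. The genotypes did not overlap in 2 of the 7 members, both with deficient islets higher, and in 15.1% of all genes, 7.22% with deficient islets higher and 7.84% with them lower. The same 2 members had an unadjusted limma p under 0.05, as did 9.48% of all genes, 4.45% on the higher side and 5.04% on the lower. In RNA of whole islets, fewer or more α cells and less or more RNA per α cell cannot be told apart.

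**Figure D1:**
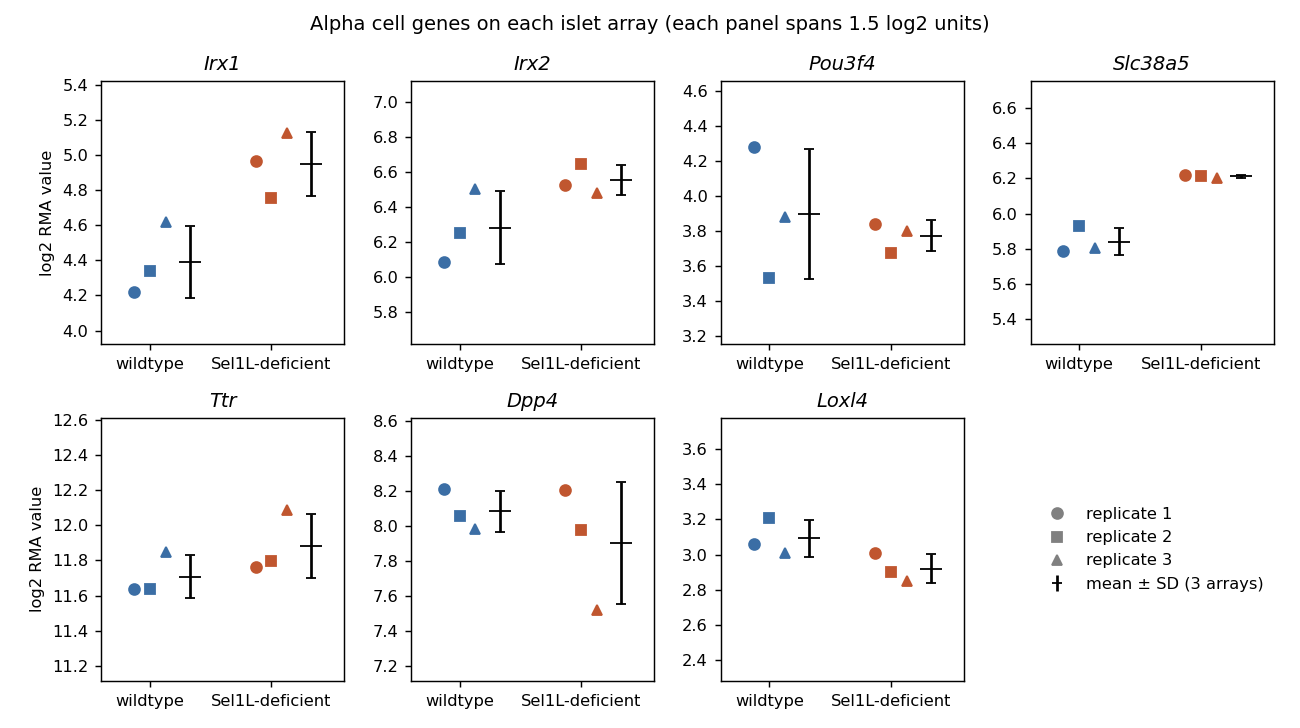
Log2 RMA value (vertical axis) of the 7 measured genes on the 3 wildtype (blue) and 3 Sel1L-deficient (orange) arrays; symbols mark replicates 1 to 3, black bars the mean ± SD (n = 3), and each panel spans the same height. Irx1 and Slc38a5 separate by genotype, with the 3 deficient Slc38a5 values between 6.20 and 6.22, and the other 5 genes overlap.

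Sequences upstream of 2 members are shown because Slc38a5 was 1 of the 2 genes whose groups did not overlap and Irx2 is the Iroquois gene beside Irx1. Each is the 250 bases before the start of the gene in RefSeq (GRCm38.p6), 5′ to 3′ on the gene's strand, from the plus strand at chrX:8271131-8271380 for Slc38a5 and at chr13:72628570-72628819 for Irx2. Capitals mark matches to any of 6 motifs searched on both strands.
Slc38a5: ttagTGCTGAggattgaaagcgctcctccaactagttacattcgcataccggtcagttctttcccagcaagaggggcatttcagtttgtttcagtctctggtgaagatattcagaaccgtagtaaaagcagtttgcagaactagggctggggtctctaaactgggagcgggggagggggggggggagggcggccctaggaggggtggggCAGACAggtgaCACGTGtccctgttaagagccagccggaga
Irx2: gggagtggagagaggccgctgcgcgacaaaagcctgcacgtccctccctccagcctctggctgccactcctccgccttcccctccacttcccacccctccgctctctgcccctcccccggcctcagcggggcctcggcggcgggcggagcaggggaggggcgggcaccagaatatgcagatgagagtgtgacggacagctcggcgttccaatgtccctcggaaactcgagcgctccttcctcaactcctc

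The Slc38a5 window held 1 SMAD-type CAGACA, 1 MAF half-site core TGCTGA and 1 E-box CACGTG, none of them overlapping. Over 32851 windows of the same length, 17.1% held CAGACA, 16.1% TGCTGA and 6.02% CACGTG on either strand. The other motifs were the forkhead TGTTTAC (3.17% of windows), the octamer ATGCAAAT (1.6%) and the TATA box TATAAA (12.4%). The Irx2 window held none of the 6 motifs and differed from the Slc38a5 window in composition, with 68.4% G and C and 19 CG pairs against 55.2% and 8. The window of Dpp4 held 1 TATAAA, and those of Pou3f4, Loxl4 and Gc held no match. A match of this kind is a description of the letters, and none of these windows was assayed.

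The Iroquois genes come first among the transcription factors. Irx1 encodes a homeodomain protein found in α cells of the mouse islet. Its log2 values were 4.22, 4.34 and 4.62 in wildtype and 4.97, 4.76 and 5.13 in Sel1L-deficient islets. The lowest deficient array thus lay above the highest wildtype array, and within each genotype replicate 3 read highest. Means were 4.39 ± 0.21 and 4.95 ± 0.18 (SD, n = 3 each), a difference of 0.56 ± 0.14 (SE) or 1.47-fold, with a 95% interval from 1.17-fold to 1.85-fold. The unadjusted limma p was 0.00441 and the adjusted p 0.265 over all genes, and 2.04% of all genes had a difference of larger size. Within the 4 arrays without Y-linked transcripts Irx1 differed by 0.58, and between the 2 with them by 0.51.

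Irx2 lies next to Irx1 in the genome and encodes its close relative. It read 6.09, 6.25 and 6.51 in wildtype and 6.53, 6.65 and 6.48 in deficient islets. The groups touched at replicate 3, where the deficient minus wildtype difference was -0.02. The means were 6.28 ± 0.21 and 6.55 ± 0.09 (SD, n = 3 each), a difference of 0.27 ± 0.13 (SE) with a 95% interval from -0.03 to 0.57 (limma, adjusted p = 0.574). Without wildtype replicate 1 it was 0.17, and within the 4 arrays without Y-linked transcripts 0.42.

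The other Iroquois-type genes measured, Irx3, Irx4, Irx5, Irx6 and the related Mkx, all had means below the array medians. Irx4, the gene on the far side of Irx2 in the same cluster, differed by 0.03. Irx3, Irx5 and Irx6 differed by 0.10, 0.11 and 0.08, and Mkx by -0.45 with 3.43 in wildtype replicate 1 and 2.08 to 2.26 on the other 5 arrays. None of the 5 passed the threshold (0 of 5; 0 at an unadjusted p under 0.05).

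Pou3f4 encodes the POU-domain factor BRN4, which α cells carry from the embryo on. Its values were 4.28, 3.53 and 3.88 in wildtype and 3.84, 3.67 and 3.80 in deficient islets. All 3 deficient arrays fell inside the wildtype range, which wildtype replicates 1 and 2 span. The difference was -0.12 ± 0.18 (SE; limma, adjusted p = 0.883), 0.07 without wildtype replicate 1 and -0.31 without wildtype replicate 2. Its relatives Pou3f1, Pou3f2 and Pou3f3 all lay below the array medians and differed by 0.03, 0.10 and -0.11.

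Among the membrane proteins, Slc38a5 encodes a transporter of glutamine and other neutral amino acids. It read 5.79, 5.93 and 5.80 in wildtype and 6.22, 6.21 and 6.20 in deficient islets. The 3 deficient arrays lay close together, and each stood above all wildtype arrays. Means were 5.84 ± 0.08 and 6.21 ± 0.01 (SD, n = 3 each), a difference of 0.37 ± 0.10 (SE) or 1.29-fold with a 95% interval from 1.11-fold to 1.51-fold. The unadjusted limma p was 0.00472 and the adjusted p 0.270, and 6.76% of all genes differed by more in size. Slc38a5, an X-linked gene like Pou3f4, differed by 0.36 within the 4 arrays without Y-linked transcripts and by 0.40 between the 2 with them, 1 of each genotype. With a covariate for Y-linked transcripts, which 1 array of each genotype had, the difference stayed at 0.37 (limma, adjusted p = 0.311). Any other part of sex in the difference was not tested.

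The 10 other SLC38 transporters measured included 0 past the threshold, with a median difference of -0.06 and 7 of 10 below 0. Slc38a4 had the largest difference in size, -0.29, with all 3 deficient arrays below all wildtype arrays (limma, adjusted p = 0.490). Slc38a10 followed with 0.21 and overlapping groups (adjusted p = 0.679). Slc7a2, a carrier of cationic amino acids that α cells also use, differed by 0.07.

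Dpp4 encodes dipeptidyl peptidase 4, the membrane enzyme that clips GLP-1 and other peptides. It read 8.21, 8.06 and 7.98 in wildtype and 8.20, 7.98 and 7.52 in deficient islets. Deficient replicate 1 stood next to the highest wildtype array and replicate 2 next to the lowest, while replicate 3 lay below all others. The difference was -0.18 ± 0.17 (SE) with a 95% interval from -0.58 to 0.21 (limma, adjusted p = 0.813). It was 0.01 without deficient replicate 3, the array with Y-linked transcripts and high acinar markers, and -0.33 without deficient replicate 1. Within the 4 arrays without Y-linked transcripts Dpp4 differed by -0.04, and between the 2 with them by -0.46; the part of acinar RNA in this was not tested.

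Dpp4, the glucagon gene Gcg and Fap, which encodes the related peptidase fibroblast activation protein, follow each other on chromosome 2. On the other side of Dpp4 lies Slc4a10, a bicarbonate transporter gene named after its value had been seen, which differed by -0.65 with all 3 deficient arrays below all wildtype arrays (limma, adjusted p = 0.231). Gcg differed by 0.03, with values from 12.55 to 12.65 in wildtype and 12.56 to 12.69 in deficient islets, near the top of the scale, where differences can be compressed. Fap differed by -0.16, and its means of 2.81 and 2.65 were below the array medians. Of the 7 relatives of DPP4 measured, 0 passed the threshold and 3 had an unadjusted limma p under 0.05, as did 9.48% of all genes. The largest difference was 0.53 in Dpp10, a non-enzymatic relative that binds potassium channels (limma, adjusted p = 0.324). The lysosomal enzyme gene Dpp7 followed with -0.52 (adjusted p = 0.286). The genotypes did not overlap in 3 of the 7, and in 15.1% of all genes. Deficient islets were above wildtype in 1, Dpp10, and below in 2, Dpp7 among them. The 5 genes of DPP4 substrates, Gip, Npy, Cxcl12, Pyy and Ppy, differed by -0.35 (Npy) to 0.25 (Pyy), with 0 past the threshold. Pyy and Ppy, like Gcg, read near the top of the scale.

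The secreted members were Ttr and Loxl4. Ttr encodes transthyretin, an abundant transcript of α cells that β cells also make. It read 11.64, 11.64 and 11.85 in wildtype and 11.76, 11.79 and 12.09 in deficient islets. Replicate 3 was highest in both genotypes, and only that deficient array exceeded every wildtype value. The difference was 0.17 ± 0.13 (SE; 95% interval from -0.12 to 0.47; limma, adjusted p = 0.743), and it was 0.07 without deficient replicate 3. Ttr read toward the top of the scale, where differences can be compressed. Rbp4, whose product travels in plasma with transthyretin, differed by 0.08, and the receptor gene Stra6, below the array medians, by 0.14. The albumin-family relatives of Gc, namely Alb, Afp and Afm, all lay below the array medians and differed by -0.012, -0.0023 and 0.028.

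Loxl4 encodes a lysyl oxidase-like enzyme that cross-links collagen and elastin. It read 3.06, 3.21 and 3.01 in wildtype and 3.01, 2.90 and 2.85 in deficient islets. No deficient array read higher than any wildtype array, and deficient replicate 1 equalled wildtype replicate 3. The mean over the 6 arrays, 3.01, lay below the lowest array median, so Loxl4 was not separated from background. The difference was -0.17 ± 0.11 (SE; limma, adjusted p = 0.690), or -0.12 without wildtype replicate 2. Lox, Loxl1 and Loxl3 differed by -0.09, 0.35 and 0.10 with overlapping groups.

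**Figure D2:**
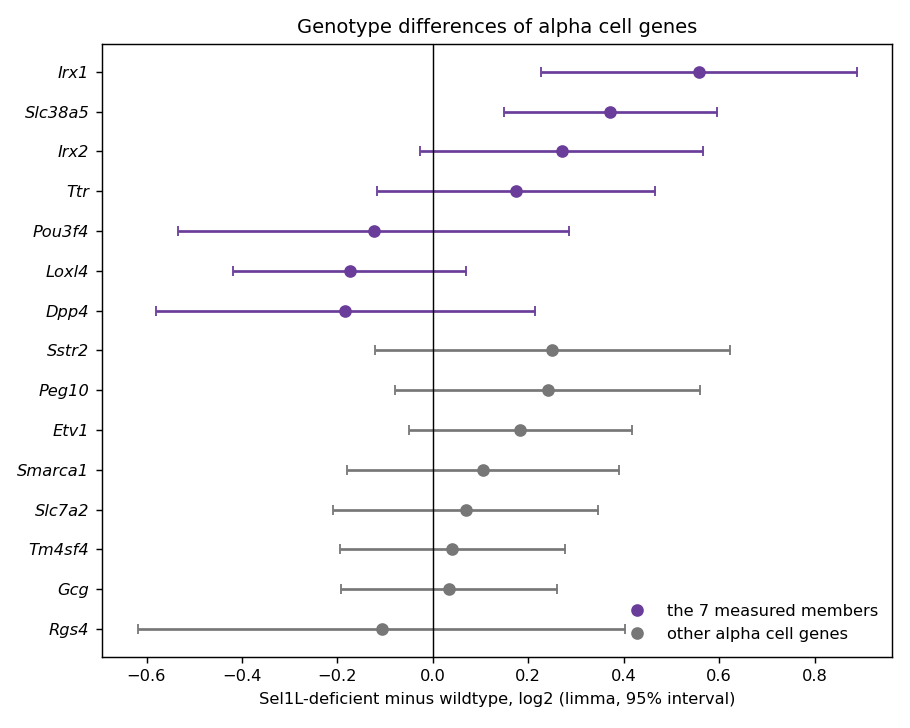
Sel1L-deficient minus wildtype difference (horizontal axis, log2) with its 95% interval from limma for the 7 measured members (purple) and 8 other α-cell genes (grey). Only the intervals of Irx1 (0.23 to 0.89) and Slc38a5 (0.15 to 0.60) lie wholly above 0.

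Other genes of α cells gave no difference past the threshold. Of 12 listed, 8 were measured, 0 rose and 0 fell, and 0 had an unadjusted p under 0.05. In 7 of 8 the difference was above 0, as in 50.1% of all genes, and the median of the 8 was 0.09. The somatostatin receptor gene Sstr2 differed by 0.25, the imprinted gene Peg10 by 0.24, the ETS factor gene Etv1 by 0.18 and the chromatin remodeller gene Smarca1 by 0.11. Etv1 was the 1 of these in which the groups did not overlap, with 8.31 to 8.47 in wildtype and 8.52 to 8.66 in deficient islets (limma, adjusted p = 0.649). The tetraspanin-like Tm4sf4 differed by 0.04, while Rgs4, a regulator of G-protein signalling, differed by -0.11. The rest of the list was not analysed here.

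The members can be set beside all genes and beside the β cells in which Sel1l was deleted. The median difference of the 7 members was 0.17, against 0.00 for all 22180 genes. Single genes had a 5th percentile of -0.33 and a 95th of 0.32, between which 5 of the 7 members lay one by one. Without deficient replicate 3 the median of the members was 0.07. Of 11 β-cell markers, 5 fell and 0 rose, where 0.153% of all genes fell. Their median was -0.66, with a largest fall of 2.11 for Mafa. All 11 had lower means in deficient islets. In 10 the genotypes did not overlap, as in 7.84% of all genes with deficient islets lower. The count past the threshold was 0 on the 4 arrays without Y-linked transcripts. It was 1 without wildtype replicate 1, wildtype replicate 3, deficient replicate 1 or deficient replicate 2. It was 2 without wildtype replicate 2 and 4 without deficient replicate 3. With fewer arrays less can be detected.

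**Figure D3:**
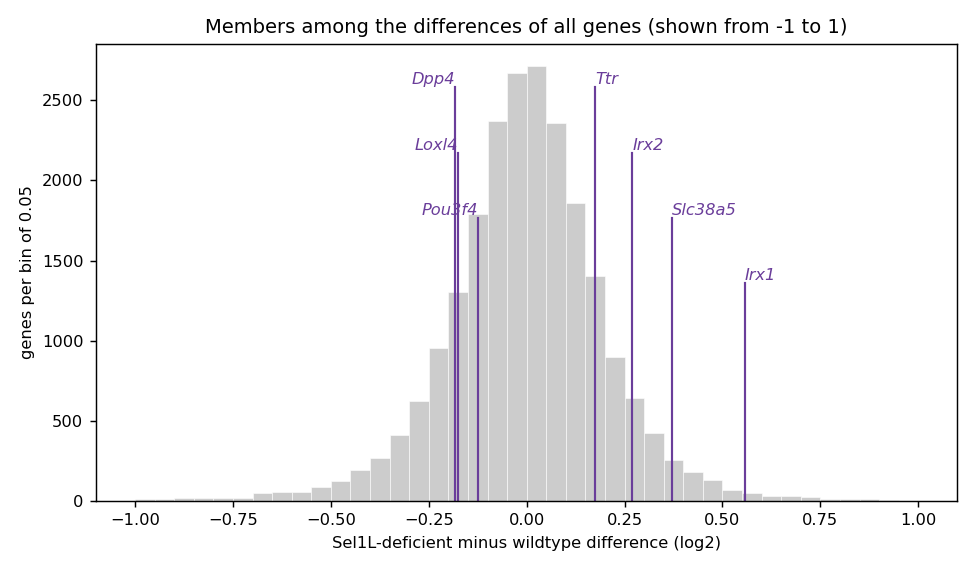
Number of genes (vertical axis) per bin of 0.05 in the Sel1L-deficient minus wildtype difference (horizontal axis, log2), with purple lines at the 7 members; the height of a line carries no value. Irx1 at 0.56 lies above the 95th percentile of all genes (0.32), as does Slc38a5 at 0.37, and the other 5 lie between the 5th (-0.33) and the 95th.

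Transcription factors of the islet endocrine cells, several of them shared by α and β cells, differed in both directions. Pax6, Isl1, Neurod1 and Foxa2, which act in several endocrine cell types, differed by 0.01, 0.02, 0.02 and -0.02. Rfx6 and Myt1, also pan-endocrine, read higher on all 3 deficient arrays, by 0.44 and 0.34, while Nkx2-2 read lower on all 3, with -0.43, as did the β-cell factors Pdx1 and Nkx6-1. None of the 12 factors passed the threshold (0 rose, 0 fell), and the smallest limma adjusted p was 0.196, for Pdx1. Of the 12, 5 had an unadjusted limma p under 0.05, as did 9.48% of all genes. The genotypes did not overlap in 2 with deficient islets higher and in 3 with them lower, and in 15.1% of all genes. Foxa1 and Pax4, 2 of the 12, had means below the array medians.

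The genes nearest to Irx1 in their array-by-array pattern were Entpd1 and Ptprb. Likeness was the root mean square distance over the 6 arrays between deviations from each gene's own mean, among 11090 genes above the median level, and it was 0.04 for Entpd1 and 0.06 for Ptprb. Entpd1, which encodes the ectonucleotidase CD39, read 4.65, 4.73 and 4.99 in wildtype and 5.26, 5.12 and 5.48 in deficient islets. Ptprb, which encodes a receptor phosphatase of blood vessel endothelium, read 5.51, 5.79 and 6.05 in wildtype and 6.44, 6.15 and 6.48 in deficient islets. In both genes, as in Irx1, every deficient array stood above every wildtype array (limma, adjusted p = 0.308 and 0.309), and these 2 were picked for their pattern, which is therefore a description.

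Markers of vessels also read higher in deficient islets. Of 14 endothelial markers, 13 differed upward, 7 of them at an unadjusted limma p under 0.05 and 0 past the threshold. Of all genes, 50.1% differed upward, and 4.45% had such a p on the higher side. Their mean log2 level ran from 5.55 to 5.90 in wildtype and from 5.96 to 6.12 in deficient islets, and Cldn5 alone had a mean below the array medians. Of 12 mesenchymal markers 12 differed upward, 4 of them at an unadjusted limma p under 0.05 and 0 past the threshold. Their mean levels ran from 4.45 to 5.01 in wildtype and from 5.04 to 5.30 in deficient islets. Lum and Pdgfra, 2 of the 12, had means below the array medians. The part of vessel or mesenchymal RNA in the Irx1, Irx2 and Slc38a5 differences was not tested.

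**Figure D4:**
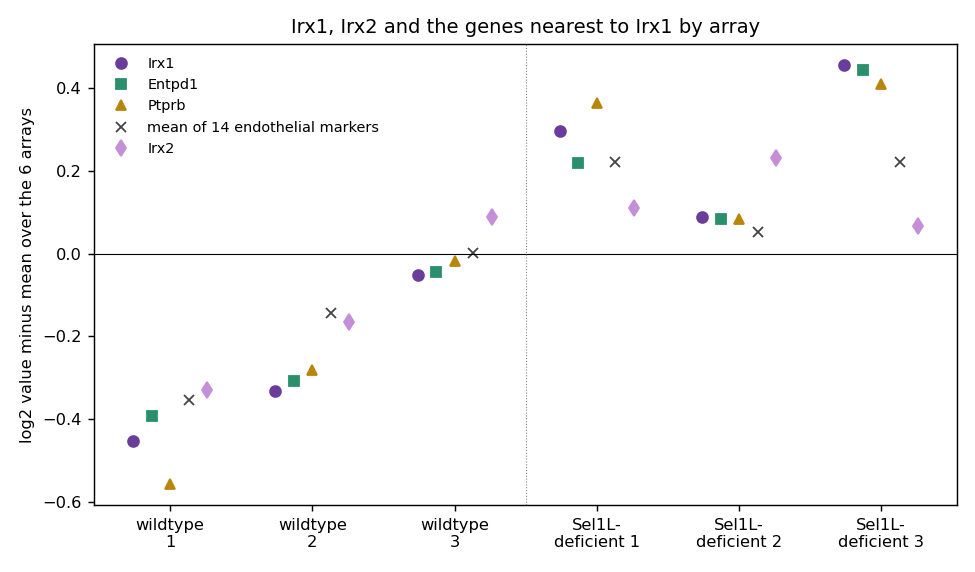
Log2 value minus its mean over the 6 arrays (vertical axis) for Irx1, Irx2, Entpd1, Ptprb and the mean of 14 endothelial markers on each array (horizontal axis; points at an array are offset sideways). Irx1, Entpd1 and Ptprb are lowest on wildtype replicate 1 and highest on deficient replicate 3, whereas Irx2 is highest on deficient replicate 2.

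Leaving out each array in turn changed the sign of 2 members and the call of 0. Irx1 stayed between 0.47 and 0.67 and Slc38a5 between 0.35 and 0.42, each at an unadjusted p under 0.05 in 6 of 6 such fits. Irx2 ranged from 0.17 to 0.38 and Ttr from 0.07 to 0.25, above 0 throughout. Loxl4 stayed below 0, from -0.22 to -0.12, while Pou3f4 and Dpp4 crossed 0.

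**Figure D5:**
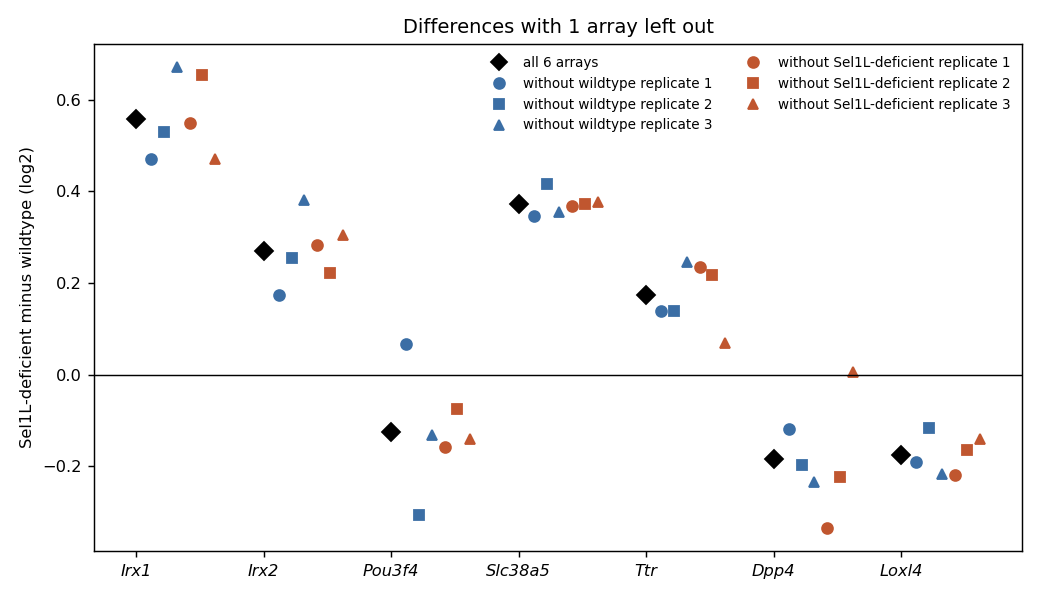
Sel1L-deficient minus wildtype difference (vertical axis, log2) of each member with all 6 arrays (black diamond) and with 1 array left out (blue, a wildtype array; orange, a deficient array; symbol shapes give the replicate). Pou3f4 reaches 0.07 without wildtype replicate 1 and Dpp4 0.01 without deficient replicate 3, while Irx1 and Slc38a5 stay at 0.35 or higher.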

How the data were processed

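Islet RNA of 6 samples, 3 per genotype, was read on Affymetrix arrays. The authors deposited 1 table of values summarised with RMA, per the submitters' processing notes. Its version and log base are not stated; the deposited values (0.526 to 13.0) were read as log2 values. RMA can compress large ratios, and the number of arrays limits the precision. Of 41345 probe sets 23521 had 1 gene symbol in the platform annotation, 1814 several and 16010 were unnamed here. Where a gene had several, the one brightest on average was kept, leaving 22180 genes.

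Differences were tested two-sided with limma (3.58.1, under R 4.3.3; lmFit, eBayes), with Benjamini-Hochberg adjustment over all 22180 genes and a threshold of 0.05, and the script was tested on simulated data. The members and lists were chosen with earlier results of these data known, and the motifs after the sequences were seen. Named genes were the members, Gcg, Sel1l, the list of other α-cell genes, relatives of each member (all where 5 or fewer were measured, otherwise those past the threshold and the 2 with the largest difference), and the 2 genes nearest to each of the 3 members with the widest range. Markers of other cells are given mostly as counts; those named, the transcription factors and the peptide substrates were picked after their values had been seen. Promoter windows came from RefSeq (GRCm38.p6). The table covered 6 of the 8 members, of which Slc38a5 and Irx2 are printed.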

Additional observations from a re-analysis of the deposited data

How the results depend on the processing

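The 7 members had 97 values under the alternatives, of which 95 kept their sign and their side of the threshold. The other 2 changed sign: with 1 array left out Pou3f4 ran from -0.31 (without wildtype replicate 2) to 0.066 (without wildtype replicate 1) and Dpp4 from -0.33 (without deficient replicate 1) to 0.0069 (without deficient replicate 3). The count of members past the threshold was 0 under all 14 alternatives, and the smallest limma adjusted p of any member was 0.130 (Slc38a5 among the genes above the median level, which tests fewer genes). The median of the members was 0.22 there, where Loxl4 dropped out, and 0.070 to 0.25 with 1 array left out. The count of all genes was 133 with a trended, robust prior, 1 on the 4 arrays without Y-linked transcripts and 4 to 29 with 1 array left out, against 54. β-cell markers past the threshold were 0 on those 4 arrays and 1 to 4 with 1 array left out, and other α-cell genes 0 throughout; both counts were added after the data were seen. With fewer arrays less can be detected, and other causes were not tested. With the replicate block 36 genes and 0 members passed. The correlations of same-numbered arrays were 0.10, 0.07 and 0.21, and 6 of 6 arrays correlated best with their own number. These matches are not independent, because deviations within a genotype sum to 0. Both replicate 3 arrays shared Y-linked transcripts and high acinar markers, and replicates 1 and 2 crossed between genotypes gave 0.04 and 0.02. Pairing by number is thus at most a hint from the data. No detection call was used, so Loxl4 and the relatives below the array medians set no level.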

Other observations

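No listed marker of δ, PP or ε cells passed the threshold. Of 5 δ-cell markers 0 passed the threshold, with differences from -0.15 (Lepr, with a mean below the array medians) to 0.14 (Hhex). Sst differed by -0.03, but like Gcg it read near the top of the scale, where differences can be compressed. Of 4 PP and ε-cell markers 0 passed, and all 4 differed upward with a median of 0.20, where 50.1% of all genes differed upward. Sertm1, 1 of the 4, had a mean below the array medians. Pyy differed by 0.25 with all 3 deficient arrays above all wildtype arrays (limma, adjusted p = 0.535), and Ghrl by 0.26 with overlapping groups. Pyy and Ppy, like Sst, read near the top of the scale. Of 6 duct markers 0 passed, with a median of -0.16 and 4 of 6 lower, and 1 of them, Cftr, had a mean below the array medians. Of 9 leukocyte markers 0 passed, with differences from -0.43 (Cx3cr1) to 0.20 (Cd3e). The means of 4 of the 9, Cd3e among them, were below the array medians.

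The genes nearest in pattern to the other wide-ranging members showed no genotype difference past the threshold. These genes were picked for their pattern over all arrays, the genotype difference included. Their lack of a difference, and the arrays on which they read highest or lowest, are therefore a description and no separate result. Pou3f4 was nearest to Fam110a and Sumf2, both highest on wildtype replicate 1 and lowest on wildtype replicate 2 like Pou3f4 itself, with root mean square distances of 0.06 each. Dpp4 was nearest to Osbpl10 (0.06) and Lrrc20 (0.07). Both read lowest on deficient replicate 3, at 5.32 and 4.65, as Dpp4 did.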
